A study of Drosophila melanogaster with 9 samples.

Results

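Insulin-like peptides bind a receptor tyrosine kinase at the cell surface, and the adaptor chico passes the signal to PI3-kinase and Akt, which holds the transcription factor foxo out of the nucleus. The same branch feeds the TOR kinase, which also reads amino acids and promotes translation through S6 kinase and the translational repressor Thor. In the fly midgut this pathway is known for tying stem cell division and gut size to feeding, and the visceral muscle around the gut is a known local source of the insulin-like peptide Ilp3.

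The genes described here are 8 genes of insulin and TOR signalling chosen by their FlyBase symbols: InR, chico, foxo, Thor, ImpL2, S6k, Tor and Ilp3. The count tables hold 15682 gene identifiers, and 6 of the 8 genes were found among them through the reference name table, Tor under its current symbol mTor. The identifiers that the name table gives to InR and S6k did not match an identifier in the tables, and those genes were not analysed here. All 6 matched genes had enough counts to be tested, among 10088 genes tested in all, and each is printed with its values whatever its result.

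RNA from dissected midguts of adult virgin female Drosophila melanogaster, 15 days old per the labels and of a w1118 strain background, was sequenced in 3 groups of 3 libraries. The control group was labelled wild type, the mutant group lacked transformer (tra), the splicing regulator of female sexual identity, and the rescue group was tra mutant with the female form of tra (traF) returned under esg, whose expression in the gut marks stem cells and their immediate daughters. All groups went through the temperature shift that switches on the transgene, with 3 days at 18 °C followed by 10 days at 29 °C, and each replicate pooled 30 midguts. The labels give neither the tra alleles, nor whether control and mutant flies carried the esg driver, nor whether the replicates were raised apart, and p-values then reflect the spread among these libraries, which may be technical. As bulk RNA of whole guts, the libraries hold progenitors, enterocytes, enteroendocrine cells, muscle and attached tissue together.

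Gene counts ranged from 84839470 to 108455374 per library. tra itself had 821, 650 and 742 counts in control libraries, 1 or 2 in each mutant library, and 756, 472 and 294 in rescue libraries, which matches the labels. The enterocyte markers betaTry, alphaTry, Myo31DF, Mal-A1 and nub summed to between 32440 and 69380 CPM, counts per 1000000 gene counts after TMM scaling, so the labelled tissue was present in every library. Control replicate 3 stood apart on the first principal component at -66.1, against -36.7 and -36.1 for the other controls and 19.4 to 28.6 for the mutant and rescue libraries. It had the lowest enterocyte sum of all libraries and the highest sum of the 5 counted progenitor markers, 135.7 CPM against 45.7 to 70.2 CPM in the other 8. Single markers went the other way there, with nub at its highest of all libraries (250.2 CPM) and zfh2 at its lowest (10.7 CPM). Log2 fold changes that rest on control replicate 3 are given with and without it.

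The question was whether genes of this pathway differ when tra is lost from the female gut and when it is put back in the progenitors. Ilp3 was lower in both tra mutant groups than in control, and it was the member that passed the threshold, an adjusted p under 0.05 over all genes tested (edgeR's quasi-likelihood test with Benjamini-Hochberg adjustment). In mutant against control 0 of the 6 genes were higher and 1 was lower, where 6.67% of all tested genes passed, 3.66% higher and 3.01% lower. In rescue against control the counts were again 0 and 1, where 9.44% of all genes passed, 4.79% higher and 4.65% lower. In rescue against mutant 0 of the 6 passed with edgeR or with DESeq2, where 0.466% of all genes passed with edgeR, 0.188% higher and 0.278% lower. Taking an unadjusted p under 0.05 as the rule, the counts were 3 of 6 in mutant against control (Ilp3, foxo and ImpL2), 2 of 6 in rescue against control (Ilp3 and foxo) and 0 of 6 in rescue against mutant, beside 24%, 27.3% and 5.07% of all tested genes. The comparisons against control share the control libraries, so their results for a gene are not separate evidence. The median absolute log2 fold change of the 6 genes was 0.68 in mutant against control, beside 0.25 over all tested genes. It lies between the values of foxo (0.68) and Thor (0.69), neither of which passed. With signs kept the median was 0.0013, beside -0.0304 over all tested genes.

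**Figure D1:**
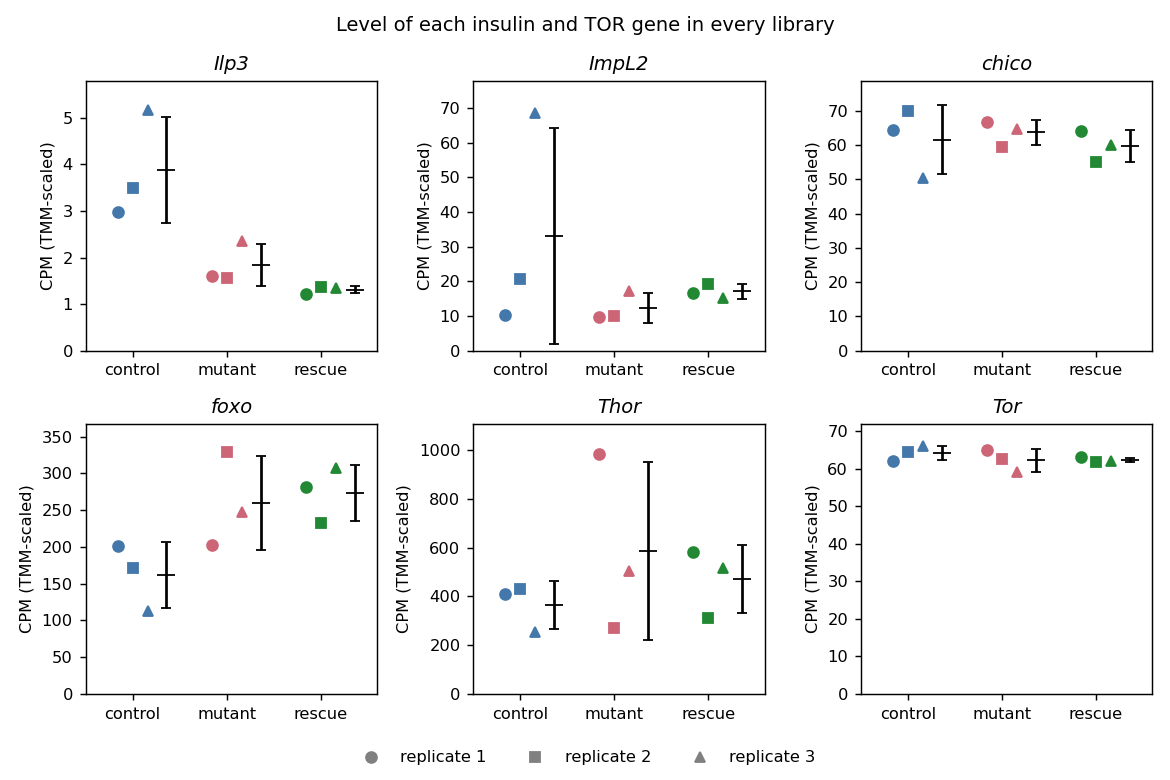
TMM-scaled CPM (vertical axes, from 0) of the 6 counted genes in every library, with replicates 1, 2 and 3 as circles, squares and triangles and the mean ± SD over n = 3 beside them. Ilp3 lies between 2.99 and 5.17 in control and between 1.22 and 2.36 in the other groups, while Tor stays between 59.1 and 66.1 in all 9 libraries.

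Ilp3 (FBgn0044050, chromosome arm 3L) encodes an insulin-like peptide that acts as a ligand of the receptor. Its levels were 2.99, 3.50 and 5.17 CPM in control libraries, 1.61, 1.56 and 2.36 CPM in tra mutant libraries, and 1.22, 1.37 and 1.36 CPM in rescue libraries. Every control library was above every mutant library, and every mutant library was above every rescue library. Groups also failed to overlap, in either direction, in 25.6% of all tested genes for mutant against control (12.9% lower), 12.2% for rescue against mutant (5.32% higher, 6.84% lower) and 31.4% for rescue against control (15.8% lower). These levels rest on 287, 329 and 579 reads in control libraries, 158, 149 and 247 in mutant libraries, and 142, 114 and 117 in rescue libraries.

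From control (3.88 ± 1.14 CPM, SD, n = 3) to the mutant (1.85 ± 0.448 CPM) Ilp3 fell by 1.07 on the log2 scale, with a standard error (SE) of 0.26 (edgeR adjusted p = 0.0377). In the rescue (1.31 ± 0.0822 CPM) it was lower than in control by a log2 fold change of -1.56 ± 0.26 (SE; edgeR adjusted p = 0.0073). The difference from mutant to rescue was -0.49 ± 0.26, with a 95% interval from -1.07 to 0.09 (edgeR adjusted p = 0.999). Libraries with the same replicate number gave log2 ratios of mutant to control of -0.89, -1.16 and -1.13. Their shared sign adds nothing, since any pairing gives it when every control library is above every mutant library. The rescue against control call held in all 16 alternative settings, with adjusted p up to 0.0359.

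The mutant against control call was lost in 9 of the 16 settings. With library totals in place of TMM and in the 6 libraries compared alone it missed the threshold (adjusted p = 0.0609 and 0.0897). Without control replicate 3 the log2 fold change was -0.80 (edgeR adjusted p = 0.0844), and without control replicate 2, mutant replicate 1 or mutant replicate 2 it was -1.14, -0.98 and -0.97 (adjusted p = 0.0527, 0.132 and 0.122). Leaving out rescue replicate 1, 2 or 3, which enter here through the shared spread, gave adjusted p = 0.0579, 0.0641 and 0.0596. The fit with same-numbered libraries as pairs kept the call with all 9 libraries (adjusted p = 0.0232) and with the 6 libraries compared (0.046).

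Visceral muscle is a known site of Ilp3 expression in the gut, so the muscle markers are set beside it. The 8 counted markers, Mhc, Act57B, Act87E, Mlc1, Mlc2, up, bt and sls, summed to 1932, 2263 and 1840 CPM in control libraries, 1460, 1180 and 1475 CPM in tra mutant libraries, and 1378, 1815 and 1226 CPM in rescue libraries. Every control sum was above every mutant and rescue sum, and the mean was 0.682 of control in the mutant and 0.732 of control in the rescue. Mhc and Act57B weigh most in it, at control means of 607.9 and 420.0 CPM. The markers did not all fall alike. sls was level at means of 93.5, 95.2 and 95.1 CPM in control, mutant and rescue. The log2 fold change of bt in rescue against control was -0.08. With edgeR 0 of the 8 passed in any comparison. At an unadjusted p under 0.05 there were 6 lower in mutant against control and 5 lower in rescue against control. Of all tested genes, 24% and 27.3% had such a p in these comparisons, in either direction. None was near 0, the lowest level in any library being 23.9 CPM. The 4 neuronal markers (elav, nSyb, brp and Syt1) summed to 18.9 to 21.0 CPM over the control libraries. Their sum was 22.1 to 27.2 CPM over the mutant and 27.5 to 32.6 CPM over the rescue libraries. With edgeR 1 of 4 passed as higher in mutant against control and 2 of 4 in rescue against control, where 3.66% and 4.79% of all tested genes did. nSyb did not rise in the mutant, with means of 5.81, 5.58 and 6.35 CPM in control, mutant and rescue. The 8 enteroendocrine markers summed to 521.5 to 650.8, 678 to 811.1 and 798 to 868.8 CPM in control, mutant and rescue libraries. Of these, 1 passed as higher in mutant against control and 4 in rescue against control, while NPF was lower in both without passing. The 3 counted haemocyte and tracheal markers (Hml, NimC1 and trh) summed to 11.75 to 34.86, 4.475 to 8.639 and 5.687 to 21.68 CPM in control, mutant and rescue libraries. With edgeR 1 of these, trh, passed as lower in mutant against control and 0 in rescue against control, where 3.01% and 4.65% of all tested genes did. Which cells the neuronal markers came from was not tested. In whole midguts, fewer cells of a type and less RNA per cell cannot be told apart.

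Expressed per 1000 CPM of muscle markers, a ratio computed after the values were seen, Ilp3 was at 1.55, 1.54 and 2.81 in control libraries, 1.10, 1.33 and 1.60 in tra mutant libraries, and 0.885, 0.753 and 1.10 in rescue libraries. On this scale the control and mutant libraries overlapped, since mutant replicate 3 was above control replicates 1 and 2, while every rescue library was below every control library. The group means were 1.97 ± 0.728, 1.34 ± 0.25 and 0.914 ± 0.178. Like the muscle sum, this ratio is weighted most by Mhc and Act57B. The control library with the highest Ilp3, replicate 3, had the lowest muscle sum of the controls and the highest progenitor sum, and the part of either in the result was not tested.

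**Figure D2:**
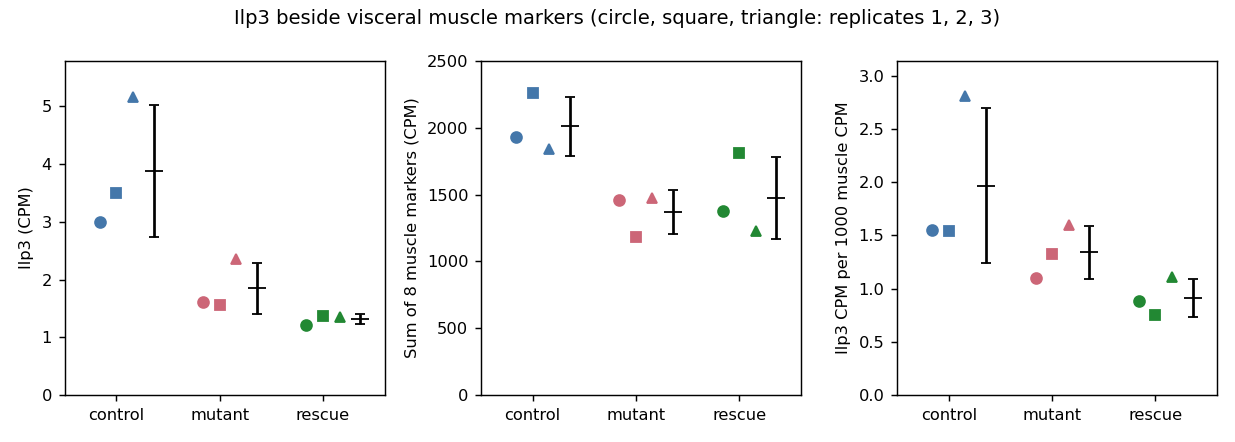
Ilp3 in CPM, the summed CPM of 8 visceral muscle markers, and Ilp3 CPM per 1000 CPM of those markers (left to right, vertical axes from 0), per library with mean ± SD over n = 3. Control libraries are highest in the first 2 panels, and in the ratio the mutant libraries at 1.10 to 1.60 reach into the control range of 1.54 to 2.81, while the rescue libraries at 0.753 to 1.10 do not.

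The other insulin-like peptide genes were at or near the limit of detection. Ilp1, Ilp2, Ilp4, Ilp5, Ilp7 and Ilp8 had too few counts to be tested, with at most 10 counts in any library, where 3 counts correspond to 0.0354 CPM in the shallowest library before TMM scaling. Ilp1 was found in 1 library with 1 count, and Ilp2 in 1 library with 4 counts. Ilp6, a peptide of the fat body, was tested at 0.169 ± 0.102, 0.151 ± 0.0488 and 0.11 ± 0.0254 CPM in control, mutant and rescue and did not pass (edgeR adjusted p = 0.871 for mutant against control). Ilp3 was thus the insulin-like peptide gene with the highest count in every library.

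The annotation places Ilp3 across 1 counted gene on the other strand, CG32052, with no shared exon bases. CG32052 was at 0.0979 ± 0.032 CPM in control libraries and 0.114 ± 0.109 CPM in mutant libraries, well under Ilp3, and did not differ past the threshold (edgeR adjusted p = 0.866). The other 5 genes overlapped no counted gene.

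ImpL2 (FBgn0001257, arm 3L) encodes a secreted protein that binds insulin-like peptides and lowers their action. Its levels were 10.2, 20.7 and 68.7 CPM in control libraries, 9.86, 9.95 and 17.3 CPM in tra mutant libraries, and 16.6, 19.4 and 15.3 CPM in rescue libraries. Control replicate 3 was more than 3 times the next control library, and the remaining 8 libraries lay between 9.86 and 20.7 CPM with the groups overlapping. The SD of its log2 level among the control libraries stood at percentile 97.5 of all tested genes.

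The log2 fold change of ImpL2 was -1.43 ± 0.56 in mutant against control (edgeR adjusted p = 0.158) and -0.96 ± 0.56 in rescue against control (adjusted p = 0.301), and neither passed. Without control replicate 3 these values were -0.31 (adjusted p = 0.65) and 0.16 (adjusted p = 0.817), the latter with the sign turned. Without control replicate 1, the control library with the lowest level, the mutant against control value was -1.86 and passed (adjusted p = 0.0387). The progenitor marker sum of 135.7 CPM in control replicate 3 stood beside its high ImpL2, and its part in that level was not tested.

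chico (FBgn0024248, arm 2L) encodes the insulin receptor substrate, the adaptor between receptor and PI3-kinase. It measured 64.5, 70.0 and 50.3 CPM in control libraries, 66.8, 59.5 and 64.8 CPM in tra mutant libraries, and 64.2, 54.9 and 60.1 CPM in rescue libraries. The 3 groups overlapped, and the lowest library was control replicate 3. The log2 fold change was 0.05 ± 0.13 in mutant against control, with a 95% interval from -0.25 to 0.35 (edgeR adjusted p = 0.861), and -0.04 ± 0.13 in rescue against control.

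foxo (FBgn0038197, arm 3R) encodes the transcription factor that insulin signalling restrains and that switches on genes of fasting and stress resistance. It measured 200.9, 171.5 and 113.0 CPM in control libraries, 202.3, 328.8 and 247.1 CPM in tra mutant libraries, and 280.8, 231.8 and 306.6 CPM in rescue libraries. All 6 libraries of the tra mutant groups were above all control libraries, although control replicate 1 and mutant replicate 1 lay close together. A gap in the higher direction was seen in 12.7% of tested genes for mutant against control and 15.6% for rescue against control.

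The log2 fold change of foxo was 0.68 ± 0.24 in mutant against control, with a 95% interval from 0.14 to 1.22 (edgeR adjusted p = 0.119), and 0.76 ± 0.24 in rescue against control, with an interval from 0.22 to 1.29 (adjusted p = 0.0778). Neither passed with edgeR, and both passed with DESeq2 (adjusted p = 0.0448 and 0.0181). Without control replicate 3, its lowest library, the values were 0.49 and 0.57 (edgeR adjusted p = 0.225 and 0.144). From mutant to rescue the difference was 0.07 ± 0.24, with an interval from -0.46 to 0.61.

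Thor (FBgn0261560, arm 2L) encodes the binding protein of the cap-binding factor eIF4E, a repressor of translation and a known target gene of foxo. It measured 410.4, 429.6 and 252.7 CPM in control libraries, 985.5, 270.8 and 502.2 CPM in tra mutant libraries, and 582.8, 312.4 and 518.0 CPM in rescue libraries. Mutant replicate 1 was the highest library and mutant replicate 2 among the lowest, and the groups overlapped. The SD of its log2 level among the mutant libraries stood at percentile 96.1 of all tested genes.

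The log2 fold change of Thor was 0.69 ± 0.43 in mutant against control, with a 95% interval from -0.27 to 1.64 (edgeR adjusted p = 0.362), and 0.37 ± 0.43 in rescue against control (adjusted p = 0.613). Without mutant replicate 1 the first value was 0.09, and without control replicate 3 the values were 0.49 and 0.19. In the mutant the library with the most Thor, replicate 1, was the one with the least foxo, at 202.3 CPM, and the one with the least Thor, replicate 2, had the most foxo, at 328.8 CPM. In control, replicate 3 was lowest for both genes.

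Tor (mTor, FBgn0021796, arm 2L) encodes the kinase at the centre of both TOR complexes. Its levels were 62.2, 64.5 and 66.1 CPM in control libraries, 65.2, 62.5 and 59.1 CPM in tra mutant libraries, and 63.1, 62.0 and 62.2 CPM in rescue libraries. All 9 libraries lay within this narrow band, control replicate 3 included, and the SD of its log2 level stood at percentile 2.91 of all tested genes among control libraries and 0.902 among rescue libraries. The log2 fold change was -0.05 ± 0.09 in mutant against control, with a 95% interval from -0.25 to 0.16 (edgeR adjusted p = 0.795), and -0.04 ± 0.09 in rescue against control, with an interval from -0.24 to 0.16.

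**Figure D3:**
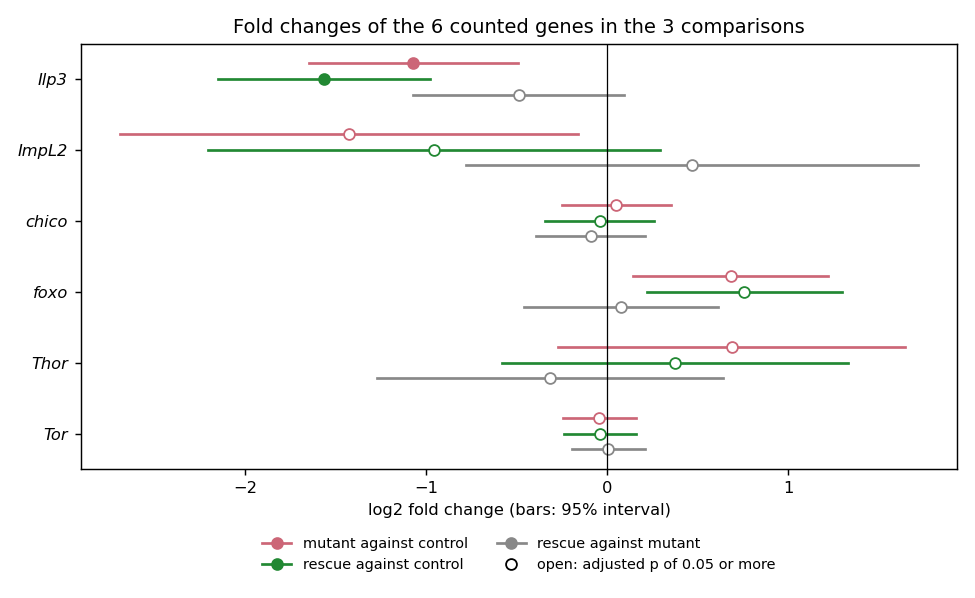
Log2 fold changes (horizontal axis) of the 6 counted genes in the 3 comparisons, with 95% intervals from edgeR's quasi-likelihood fit as bars and filled circles where the adjusted p was under 0.05. The filled circles are those of Ilp3 at -1.07 and -1.56, and the intervals of Tor and chico are the narrowest around 0.

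Levels per length were compared between genes as CPM per 1000 exon bases, with exon lengths from a newer annotation than the one behind the counts. In control they were 482.4 ± 128.6 for Thor, 39.2 ± 10.8 for foxo, 17.2 ± 2.85 for chico, 12.45 ± 11.7 for ImpL2, 8.04 ± 0.249 for Tor and 5.17 ± 1.52 for Ilp3. Thor, foxo and chico did not overlap each other over the 3 control libraries. ImpL2, from 3.835 to 25.8, overlapped chico, Tor and Ilp3, so its place in the order is not fixed by these libraries. In the rescue Tor (7.82 ± 0.075) was above ImpL2 (6.41 ± 0.778) in every library, and Ilp3 was lowest at 1.75 ± 0.109.

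Among the tested genes, the 3 whose pattern over the 9 libraries was most like that of Ilp3, by the root mean square difference of log2 levels after centring each gene, were Chd3, CG7497 and CG12112, at 0.22, 0.24 and 0.25 log2 units. The median of this difference over all tested genes was 0.72. Chd3, which encodes a chromatin remodelling ATPase of the CHD family, went from 1.22 ± 0.479 CPM in control to 0.568 ± 0.0688 in the mutant and 0.424 ± 0.0855 in the rescue. CG7497 went from 23.0 ± 9.03 to 12.2 ± 1.83 and 10.8 ± 1.16 CPM, and CG12112 from 29.7 ± 9.35 to 17.2 ± 3.21 and 9.22 ± 1.04 CPM. In each of them, as in Ilp3, control replicate 3 was the highest library, and no test is given because the genes were picked for this likeness. Their log2 fold changes in mutant against control were -1.11, -0.91 and -0.79, and without control replicate 3 they were -0.72, -0.54 and -0.49. The likeness was not computed again without that library.

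A wider list of 50 other genes of the pathway, from ligands to outputs, is described by counts. Of these, 43 were tested, and 0 were higher and 2 lower in mutant against control, 0 and 1 in rescue against control, and 0 and 0 in rescue against mutant (edgeR). Of all tested genes, 3.66% were higher and 3.01% lower in the first comparison, and 4.79% and 4.65% in the second, so the list's counts of lower genes are near that background. In the last comparison the counts were also 0 and 0 with DESeq2, and 0 of the 43 had an unadjusted p under 0.05. With DESeq2 the counts were 1 higher and 3 lower in mutant against control, and 1 higher and 4 lower in rescue against control, where DESeq2 gave 728 higher and 688 lower, and 869 higher and 936 lower, over all genes. The list's median log2 fold change in mutant against control was 0.05, beside -0.03 over all tested genes, and its median absolute value was 0.15, beside 0.25. The 3 genes of the TSC complex and Rheb (Tsc1, gig and Rheb) and the 4 genes of the TOR complexes (raptor, rictor, Lst8 and Sin1) did not pass with edgeR in any of the 3 comparisons, and 0 of them had an unadjusted p under 0.05.

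The genes of the wider list that passed were slif and srl. slif, slimfast, encodes a cationic amino acid transporter that feeds TOR signalling, known from the larval fat body. It measured 134.9, 250.9 and 193.0 CPM in control libraries, 55.9, 93.9 and 52.4 CPM in tra mutant libraries, and 59.2, 81.6 and 93.3 CPM in rescue libraries, so that every control library was above every other library. Such a gap in the lower direction was seen in 12.9% of tested genes for mutant against control and 15.8% for rescue against control. slif fell by 1.52 on the log2 scale in the mutant (SE 0.29, edgeR adjusted p = 0.015). In the rescue against control it fell by 1.31 (SE 0.29, edgeR adjusted p = 0.0242). The summed level of 6 fat body markers (Yp1, Yp2, Yp3, Lsp2, Fbp1 and apolpp) was also above the others in every control library. It was 95.8, 62.4 and 12.6 CPM in control libraries, 4.16 to 5.71 CPM in the mutant and 5.69 to 11.1 CPM in the rescue. Among the control libraries, replicate 1 had the highest sum and the lowest slif. Most of the control sum was Yp1, Yp2 and Yp3, at means of 25.1, 11.4 and 11.7 CPM. They were at 0.179, 0.170 and 0.261 CPM in the mutant and 0.129, 0.160 and 1.60 CPM in the rescue. These yolk protein genes are sex-biased, so the sum does not by itself measure the amount of fat body. Lsp2 went the other way, at 0.123, 0.189 and 0.879 CPM in control, mutant and rescue. apolpp overlapped between control and both other groups, and Fbp1 had too few counts to be tested. The part of fat body in the slif result was not tested. The mutant call was lost without mutant replicate 1 or 3 (adjusted p = 0.073 and 0.0709), and the rescue call without control replicate 2 or any 1 rescue library (adjusted p = 0.0536 to 0.0949).

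srl, spargel, encodes the fly relative of the PGC-1 coactivators of mitochondrial genes and acts downstream of insulin and TOR signalling. Its levels were 35.4, 21.1 and 28.1 CPM in control libraries, 11.998, 16.6 and 12.3 CPM in tra mutant libraries, and 16.8, 13.7 and 20.1 CPM in rescue libraries, with every control library above all others. As given for slif, such a gap was seen in 12.9% and 15.8% of tested genes in these comparisons. srl fell by 1.05 on the log2 scale in the mutant (SE 0.22, edgeR adjusted p = 0.0203). The rescue against control value of -0.74 ± 0.22 did not pass (adjusted p = 0.0589; with DESeq2 0.0168). The mutant call was lost without mutant replicate 1 or 3 (adjusted p = 0.0893 and 0.0865) and with same-numbered control and mutant libraries as pairs in the 6 libraries alone (0.0879).

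From mutant to rescue slif measured 0.21 ± 0.29, with a 95% interval from -0.43 to 0.85, and srl 0.31 ± 0.21, with an interval from -0.17 to 0.79 (edgeR adjusted p = 0.999 for each). Both intervals include 0. The log2 fold changes in mutant against control had 95% intervals from -2.17 to -0.87 for slif and from -1.53 to -0.57 for srl. The part of either fall that was regained in the rescue is therefore not fixed by these values.

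**Figure D4:**
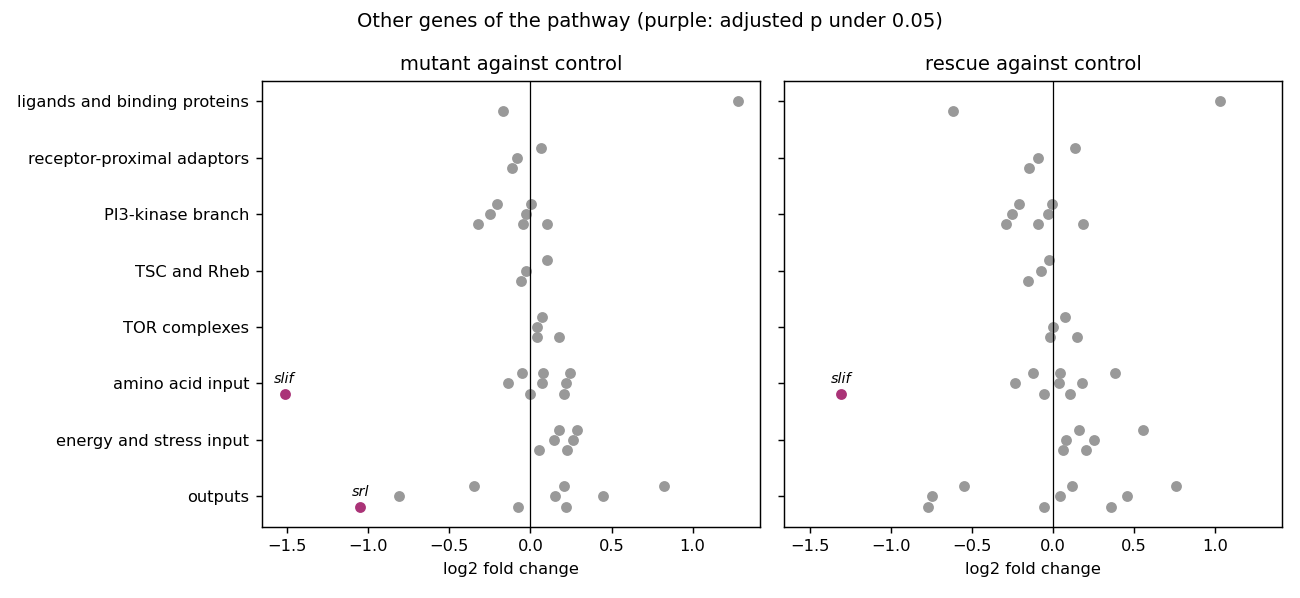
Log2 fold changes (horizontal axes) of the 43 tested genes of the wider pathway list, by role (vertical axis), in mutant against control (left) and rescue against control (right). Genes with an adjusted p under 0.05 are purple and named. Most points lie near 0, with slif at -1.52 and -1.31 and srl at -1.05 on the left.

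Sdr, which encodes a secreted decoy of the insulin receptor and was singled out after its values were seen, is the counterpart of ImpL2 among extracellular inhibitors. It measured 1.51, 0.946 and 0.517 CPM in control libraries, 2.61, 1.87 and 2.73 CPM in tra mutant libraries, and 2.35, 1.76 and 1.96 CPM in rescue libraries. All libraries of both tra mutant groups were above all control libraries. Such a gap in the higher direction was seen in 12.7% of tested genes for mutant against control and 15.6% for rescue against control. The log2 fold changes of 1.28 ± 0.36 and 1.03 ± 0.36 against control missed the threshold with edgeR (adjusted p = 0.0637 and 0.098; without control replicate 1, 0.0201 and 0.029) and passed with DESeq2 (0.00392 and 0.0222). Without control replicate 3 they were 0.98 and 0.74.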

How the data were processed

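Midgut RNA (500 ng per library) went through a stranded mRNA kit and was sequenced as read pairs of 100 bases, per the labels. The deposited values are raw counts per gene, which the authors made with TopHat2 2.0.11 and HTSeq on build dm3, per the submitters' processing notes. The strand setting of HTSeq is not given in the sources used here. Each table ends in 5 lines that are not genes, which were kept out of the library totals. Among these, alignments with several placements made up 14.6% to 22.9% of the total, reads outside genes 1.30% to 1.83%, and reads shared between genes 0.822% to 1.09%. The reference name table gave a symbol to 15002 of the 15682 identifiers. Members and lists were chosen with earlier results of these data known. Besides the 6 matched members, the text names genes of the wider list that passed in a comparison and the 3 genes most like each member that passed, plus Sdr.

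Tests were run in R 4.3.3 with edgeR 4.0.16: filterByExpr (minimum count 10, minimum total 15), TMM factors and the quasi-likelihood test with one mean for each group, fitted to all 9 libraries and 10088 genes and tested on simulated data first. Its estimate of the common biological coefficient of variation was 0.246. The alternatives tried were DESeq2 1.42.0, RLE factors, library totals, no filter, the replicate number as a block, the 6 libraries of a comparison alone, and leaving out each library. Exon lengths and overlaps came from a BDGP6 annotation, which is not the build of the counts, and coordinates are therefore not printed. The floor of 3 counts covers counting error only, and PCR copies were not marked.

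Whether replicate numbers pair libraries was checked by correlating, across genes, the deviations from group means. Same-numbered control and mutant libraries gave r = 0.20, 0.17 and 0.16, and differently numbered ones at most -0.0056. For each gene the deviations within a group sum to 0, so a positive r for the same number makes the others negative on average. Those low values are therefore not separate evidence, and the numbers may or may not pair these libraries. Rescue and mutant gave 0.09, 0.07 and -0.22, and rescue and control 0.01, 0.25 and 0.03. In these comparisons differently numbered libraries reached 0.13 and 0.17, so an r over 0.1 does not by itself mark a pair. The main test was fitted without pairs, and pairing was used in the alternatives only. Replicates of 1 group differed by far more than sampling noise (chi-square over degrees of freedom from 121.5 up).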

Additional observations from a re-analysis of the deposited data

How the results depend on the processing

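Of 288 values for the 6 members (3 comparisons, 16 settings), 265 kept their direction and side of the threshold, 9 lost a call, 3 gained one and 11 changed sign. The 9 losses were all of Ilp3 in mutant against control. The number of members lower in mutant against control was 0 with library totals and 0 with the 6 libraries alone, and 0 to 2 when 1 library was left out. With DESeq2 there was 1 member higher, foxo, in mutant against control and 1 in rescue against control.

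Over all genes in mutant against control, 369 were higher and 304 lower. The counts became 728 and 688 with DESeq2, 239 and 177 with the 6 libraries alone, and 227 and 152 with those 6 and the replicate block. Leaving out 1 library gave 200 to 406 higher and 114 to 352 lower. In rescue against mutant, 19 were higher and 28 lower, against 63 and 62 with DESeq2, 44 lower with the 6 libraries alone, and 7 to 28 higher and 11 to 43 lower with 1 library left out. In rescue against control, 483 were higher and 469 lower, against 869 and 936 with DESeq2, 294 and 200 with the 6 libraries alone, 267 and 212 with those 6 and the block, and 221 to 466 higher and 139 to 508 lower with 1 library left out. The cause of these differences was not tested. With edgeR over 9 libraries the replicate block added a call for Sdr (adjusted p = 0.0489) and changed no call of a member in mutant against control. In the 6 libraries alone it removed that of srl (adjusted p = 0.0388 without it, 0.0879 with it) and added that of Ilp3 (0.0897 without it, 0.046 with it).

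The sign changes concern values that passed in no case. With 1 library left out, log2 fold changes in mutant against control ran from -0.068 to 0.15 for chico and from -0.0794 to 0.0026 for Tor. In rescue against mutant they ran from -0.0767 to 0.28 for foxo, from -0.66 to 0.28 for Thor and from -0.0191 to 0.038 for Tor, which was -0.0025 with no filter. In rescue against control they ran from -0.15 to 0.0575 for chico, from -1.39 to 0.16 for ImpL2 and from -0.0648 to 0.0004 for Tor. With a common coefficient of variation of 0.246 and 3 libraries a group, the width of the printed intervals limits what differences could be detected.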
